A study of Homo sapiens with 9 samples.

Results

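The genes described here are the 39 protein-coding HOX genes, among 19794 protein-coding genes of the annotation. Members were taken by symbol alone (HOXA, HOXB, HOXC or HOXD followed by a number). There are 11 in the HOXA cluster on chromosome 7, 10 in HOXB on chromosome 17, 9 in HOXC on chromosome 12 and 9 in HOXD on chromosome 2. A gene was given every RNA polymerase II (RNAPII) peak that touched its annotated span, widened by 500 bp at each end, by at least 1 bp.

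HOX proteins are transcription factors that bind DNA through a homeodomain and give cells along the head-to-tail axis of the embryo their regional identity. The genes of a cluster lie on the same strand in an order that mirrors their domains in the embryo: low-numbered genes are used toward the head and high-numbered genes toward the tail and limb ends. Genes of the same number in different clusters are called paralogs. In differentiated cells and cell lines the clusters are held in active or silent blocks by trithorax and Polycomb proteins, and the paralogs of number 11 are known for their part in building the kidney.

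The peaks come from ChIP-seq of RNAPII with the 4H8 antibody, which binds all forms of the polymerase, in HEK293, a human embryonic kidney line. In the knockdown arm, HEK293 cells were infected with lentivirus: the control shRNA library (the empty pLKO.1 vector in the study's methods), and RECQL5 shRNA 5 and RECQL5 shRNA 7, here shRNA5 and shRNA7, which deplete RECQL5, a DNA helicase that associates with RNAPII. In the overexpression arm, HEK293T-Rex cells carried a plasmid, selected with Zeocin, that expresses full-length RECQL5 from a doxycycline-responsive promoter in addition to the cells' own gene, and were left without doxycycline (0.0 ng/ml) or given 1.0 ng/ml. The labels name the line HEK293 for all libraries. Each group was 1 library, so every difference below is between single libraries, has no replicate check and carries no p-value.

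There were 5287 peaks for the control shRNA, 23698 and 32124 for shRNA5 and shRNA7, and 47060 and 33900 for cells without and with doxycycline, with 842310 to 6698771 sequenced tags inside them. The false discovery rate (FDR) of single peaks reached 19.58% in the shRNA7 list, where 21639 peaks had at most 5%. No other list went above 6.25%. The study's methods name more peaks for each library of the knockdown arm than the deposited lists hold, the reason was not tested, and every gain and fold over the control below rests on the deposited control list. Reads outside peaks are not in these lists, and levels were therefore compared only within an arm. As a check of the cell line, a peak at a transcription start site (TSS) was present for 3 to 6 of 7 genes typical of HEK293 (KRT8, KRT18, VIM, NEFL, NEFM, PAX2 and LHX1, of which KRT8, KRT18 and VIM had one in all 5 lists and NEFM in none). For ALB, HBB, PTPRC, CD3E, INS and MYH7, markers of other tissues, it was 0 of 6 in every list.

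The promoter sequences below show how differently HOX promoters are built. HOXA9 and HOXD11 are shown as promoters whose canonical TSS (that of the MANE Select or Ensembl canonical transcript) was touched by a peak in all 5 lists, each with the most tags of such genes in its cluster among promoters free of annotated UTRs. The promoter of HOXB1, which had no peak in any list, stands beside them. Each run is the 250 bp upstream of the canonical TSS, read 5′ to 3′ on the gene's strand from GRCh37, with the box CCAAT, or ATTGG where it lies on the other strand, in capitals. They lie at chr7:27205157-27205406, minus strand (HOXA9), chr2:176971758-176972007, plus strand (HOXD11) and chr17:46608374-46608623, minus strand (HOXB1).
HOXA9: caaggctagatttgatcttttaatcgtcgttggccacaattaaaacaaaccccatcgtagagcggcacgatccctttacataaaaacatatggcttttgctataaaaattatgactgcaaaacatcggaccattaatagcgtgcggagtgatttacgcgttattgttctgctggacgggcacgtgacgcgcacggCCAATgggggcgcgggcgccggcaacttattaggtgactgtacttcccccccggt
HOXD11: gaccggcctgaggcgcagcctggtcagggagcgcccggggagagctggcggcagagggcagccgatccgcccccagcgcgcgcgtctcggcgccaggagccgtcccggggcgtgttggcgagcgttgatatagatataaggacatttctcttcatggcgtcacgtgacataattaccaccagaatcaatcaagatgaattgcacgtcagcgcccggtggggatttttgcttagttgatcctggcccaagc
HOXB1: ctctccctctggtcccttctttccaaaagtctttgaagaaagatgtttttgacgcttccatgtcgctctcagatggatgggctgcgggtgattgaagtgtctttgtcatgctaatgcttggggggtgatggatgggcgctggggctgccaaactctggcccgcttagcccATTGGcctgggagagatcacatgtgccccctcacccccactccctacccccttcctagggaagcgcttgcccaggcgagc

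The HOXA9 and HOXD11 promoters held 20 and 23 CpG dinucleotides and that of HOXB1 7, against a median of 15 over HOX promoters and 18 over all promoters. Over HOX promoters the median was 14 for those touched in at least 4 lists, 16.5 for those touched in 1 to 3 and 12 for those touched in none. A CCAAT box on either strand was found in 29 of the 39 HOX promoters (74.4%), in 58.9% of 95 other homeobox genes and in 34.2% of 19790 protein-coding promoters of the same length. Among HOX promoters it was present in 13 of 18 whose canonical TSS was touched in at least 4 lists and in 5 of 7 touched in none (72.2% and 71.4%). A TATAAA box on either strand was found in 6 HOX promoters (15.4%, against 9.35% of all promoters), among them HOXA9. The motif TGATTNAT, the form bound by HOX proteins together with PBX partners, was found on either strand in 3 HOX promoters, HOXA2, HOXB9 and HOXD11 (7.69%, against 1.71% of all promoters). None of these motifs contains another, matches may overlap in part, and a match is a run of letters, not a measured site.

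Of the 39 HOX genes, 13 had a peak in the control shRNA list, where 22.5% of all protein-coding genes had one. With shRNA5 it was 26 HOX genes against 52.4% of all genes, and with shRNA7 34 against 60.5%. Without doxycycline 31 HOX genes had a peak, against 64.1% of all genes, and with doxycycline 25, against 53.5%. The HOX shares were thus 33.3%, 66.7%, 87.2%, 79.5% and 64.1%, above the share of all genes in each list. The 95 other homeobox genes, taken from families such as DLX, LHX, NKX, PAX and POU, lay below it, with 7.37%, 24.2%, 43.2%, 51.6% and 33.7%. Peaks at a TSS (within 500 bp of the TSS of a protein-coding transcript) were present for 9, 23, 32, 29 and 23 HOX genes, against 17.3%, 44.5%, 52.8%, 57.0% and 48.2% of all genes.

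**Figure D1:**
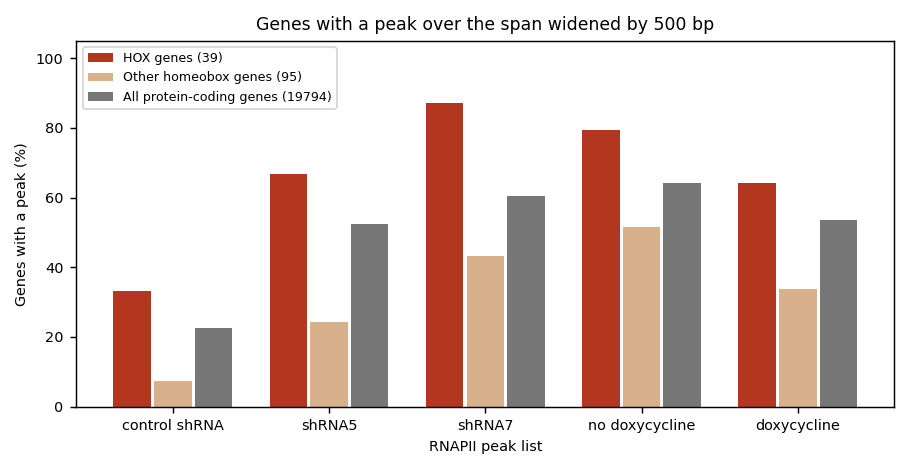
Share of genes (%) with an RNAPII peak over the span widened by 500 bp, by list, for the 39 HOX genes, 95 other homeobox genes and 19794 protein-coding genes; bars are counts over genes from single libraries. The HOX bar is above the all-gene bar in each list, from 33.3% against 22.5% (control shRNA) to 87.2% against 60.5% (shRNA7).

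The lists differ in length, which bears on these shares. With each list reduced to its 5287 peaks of highest significance score, HOX genes with a peak numbered 13 in the control, 11 with shRNA5 and 16 with shRNA7, so that shRNA5 fell below the control, and 18 without and 10 with doxycycline. The share of all genes was then 22.5%, 25.6% and 28.5% in the knockdown arm and 26.3% and 23.1% in the doxycycline arm. HOX genes also lie so close together that 24 of the 39 widened spans overlap another HOX span and a peak can be counted for several of them. Where the peak's summit had to lie inside the widened span, 12 HOX genes had one in the control, 23 with shRNA5 and 24 with shRNA7. It was 28 without and 24 with doxycycline. The share of all genes was not computed for this setting.

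There were 12 HOX genes with a peak in all 5 lists: HOXA9, HOXA10, HOXB2, HOXB3, HOXB4, HOXB5, HOXB7, HOXB9, HOXD3, HOXD9, HOXD10 and HOXD11. A further 9 had one in 4 lists, each missing only the control shRNA list: HOXA3, HOXA4, HOXA5, HOXA7, HOXB6, HOXC4, HOXC5, HOXC6 and HOXC9. HOXB1, HOXC10 and HOXC12 had no peak in any list. HOXA13, HOXB13, HOXC8 and HOXD12 had a peak in a single list and HOXC11, HOXC13 and HOXD4 were among those with one in 2. The genes with a peak in at most 2 lists thus include 5 of the 6 genes numbered 12 or 13, and HOXB1, all toward the ends of their clusters. They also include HOXC8, HOXC10 and HOXD4, which lie inside their clusters, while HOXD1 and HOXD13, at the ends of HOXD, had a peak in 3.

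**Figure D2:**
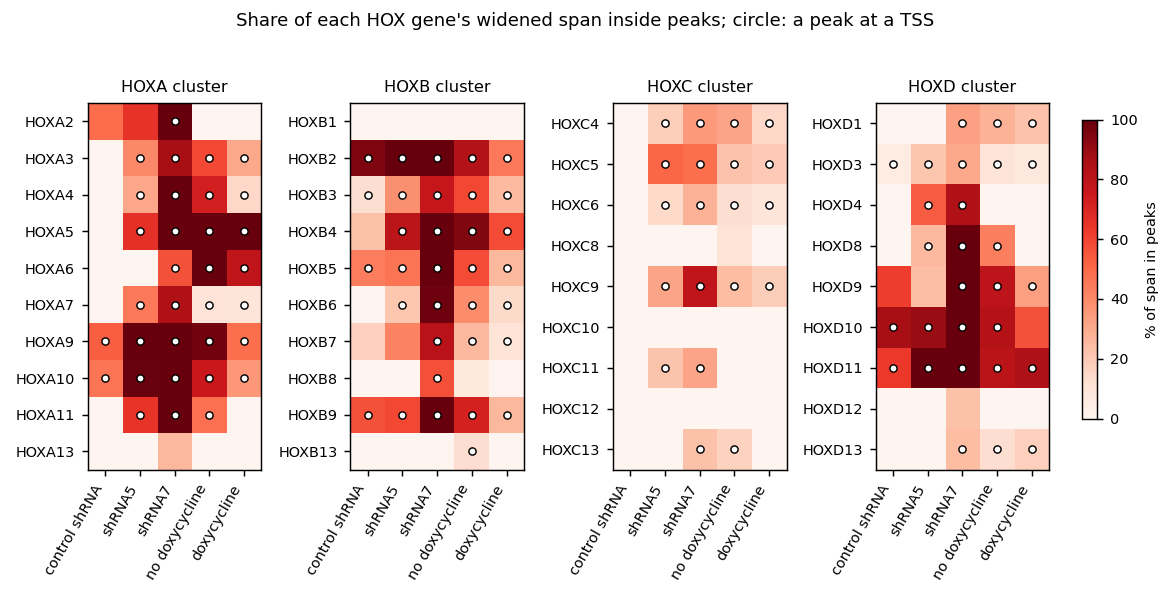
Share (%) of each HOX gene's widened span inside RNAPII peaks (colour scale, 0 to 100) in the 5 lists, with genes in order of number within each cluster and 1 HOXA gene not shown; a circle marks a peak within 500 bp of a TSS. HOXA9, HOXA10, HOXB2 to HOXB5, HOXB7, HOXB9 and HOXD9 to HOXD11 have some cover in all 5 lists. HOXB6 is blank in the control shRNA list and HOXB8 in the control shRNA and shRNA5 lists, while HOXB1, HOXC10 and HOXC12 are blank in all 5.

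The position within a cluster was described in 3 blocks. In the control shRNA list a peak was present for 5 of 12 anterior genes (numbers 1 to 4), 2 of 11 central genes (5 to 8) and 6 of 16 posterior genes (9 to 13). With shRNA5 the counts were 9, 8 and 9, and with shRNA7 11, 10 and 13. Without doxycycline they were 9, 11 and 11, and with it 8, 9 and 8. The central block was thus the one with the lowest share in the control list (18.2%) and the one with the highest share in both doxycycline-arm lists (100% and 81.8%). These counts include HOXB8, reached there only in its widening (7.22% and 1.06% of the widened span), and, without doxycycline, HOXC8 with 9 tags. Peaks at a TSS were present for 81.8% and 72.7% of central genes in the doxycycline arm, against 75.0% and 66.7% of anterior genes.

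The HOXA cluster (chr7:27132112-27240210 when widened) held 4 peaks in the control list, 15 with shRNA5, 12 with shRNA7, 26 without doxycycline and 18 with it, the order in which runs of 5 values are given from here on. They covered 9.70%, 50.5%, 83.9%, 45.8% and 21.0% of its 108 kb, so most of the cluster lay inside peaks with shRNA7. In the control list the peaks lay over HOXA2, at the HOXA9 TSS and over HOXA9 to HOXA10, where the strongest was 6210 bp long with 293 tags, and left HOXA3 to HOXA7 empty. In the other 4 lists HOXA3, HOXA4, HOXA5 and HOXA7 had peaks, and HOXA6 had them in all but the shRNA5 list.

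HOXA9, a regulator of blood progenitors that is often overproduced in acute leukemia, had touching peaks with 347 tags in the control shRNA list, 1198 with shRNA5 and 4209 with shRNA7. It had 584 tags without doxycycline and 242 with it. With shRNA7 a single peak of 30099 bp with a fold enrichment of 21.4 over the local IgG background (chr7:27198442-27228540) spanned HOXA9, HOXA10 and HOXA11, so those 3 genes share its 4209 tags. Only 65 of the 32124 shRNA7 peaks were longer. In the shRNA5 list a peak of 15917 bp with 1198 tags covered HOXA9 and reached into HOXA10, and the summit lay 12 bp downstream of the canonical HOXA9 TSS. The summit of the peak at that TSS was 28 bp downstream of it in the control list, 52 bp without doxycycline and 19 bp with it.

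HOXA10, which acts in patterning the uterus and limb, had 349, 1550 and 4209 tags in the knockdown-arm lists, and 561 without and 138 with doxycycline. In the control list its TSS peak lay at an alternative start and its canonical TSS was not touched. HOXA11, of the kidney-building number 11 paralogs, had no control peak, 473 tags with shRNA5, 61 without doxycycline and none with it.

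HOXA5, known for its part in lung development, had no peak in the control list, 205 tags with shRNA5, 742 with shRNA7, 779 without doxycycline and 274 with it, and its whole span lay inside peaks in the last 3 of these lists. The peak without doxycycline was 14807 bp long (chr7:27177837-27192643), held HOXA5 and HOXA6, and had a fold enrichment of 96.7, higher than 99.2% of that list, with its summit in the TSS window of HOXA3. With doxycycline the same stretch was split into peaks, the one with the most tags 5458 bp long with 274 tags and a fold enrichment of 18.45 and its summit at the HOXA5 TSS. The doxycycline peak in the TSS window of HOXA3 was 2290 bp long with 118 tags and had the highest fold enrichment of the stretch there, 32.87. HOXA3, in neural crest and pharyngeal arch development, had 0, 995, 2770, 1176 and 622 tags in the 5 lists, over a long annotated span that holds HOXA4, HOXA5 and HOXA6. HOXA4 had 0, 82, 370, 109 and 16 tags, and HOXA7 0, 114, 304, 12 and 14. HOXA6 had 327 tags with shRNA7, 779 without doxycycline and 535 with it.

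HOXA2, which patterns the hindbrain and pharyngeal arches, had peaks in the knockdown arm alone. It had 76 tags in the control shRNA list, 247 with shRNA5 and 520 with shRNA7, and no peak in either doxycycline-arm list. The summit lay in an exon of HOXA2 in all 3 knockdown-arm lists, and its TSS was touched only with shRNA7. HOXA13, a limb and genital tract gene at the cluster's end, had a single peak, with shRNA7, with 83 tags.

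**Figure D3:**
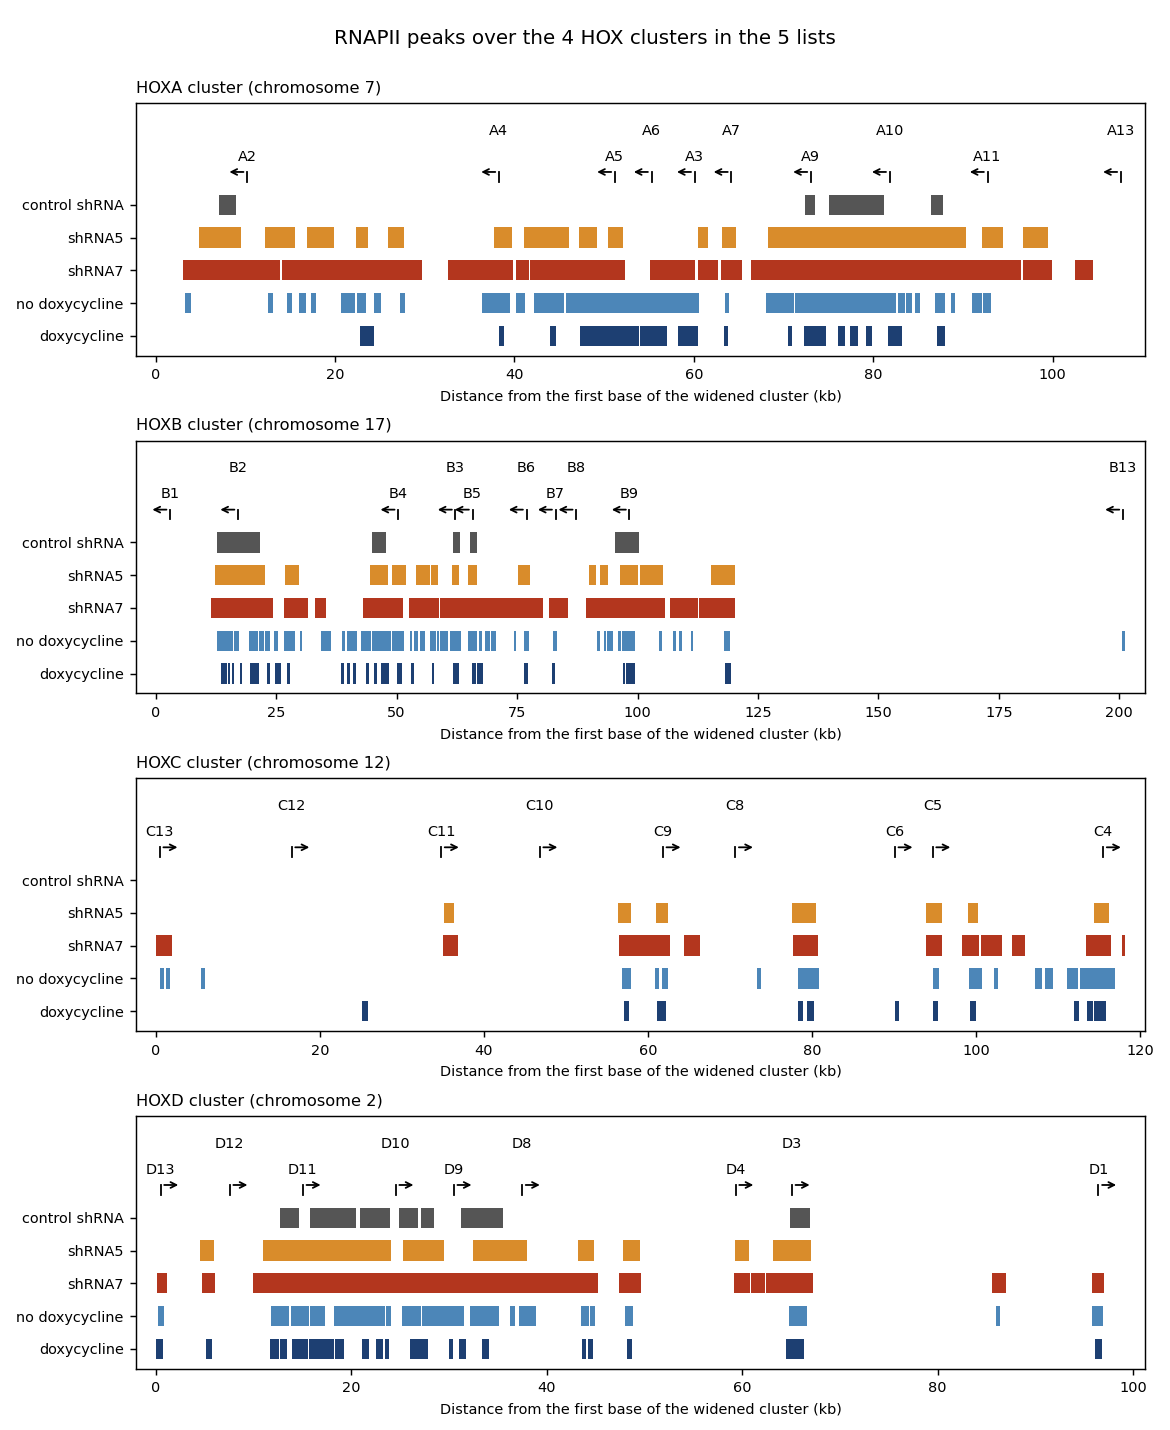
RNAPII peaks (bars) over the HOXA, HOXB, HOXC and HOXD clusters in the 5 lists, by distance in kb from the first base of each widened cluster; arrows mark the canonical TSS and direction of each gene shown. The shRNA7 rows hold the longest bars (30099 bp in HOXA and 35298 bp in HOXD), the control shRNA row of HOXC is empty, and no peak touches HOXB1, HOXC10 or HOXC12.

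The HOXB cluster (chr17:46605388-46806612) held 5, 15, 11, 43 and 27 peaks, which covered 9.93%, 23.1%, 44.4%, 24.6% and 10.8% of its 201 kb. HOXB13 lies far from the rest of the cluster, and the peaks in the interval before it lay in its part nearest HOXB9, mostly over the non-coding gene LINC03057. HOXB had the highest share of genes with a control peak of the 4 clusters (6 of 10), and 4 of its genes (HOXB2, HOXB3, HOXB5 and HOXB9) had a TSS peak in all 5 lists.

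HOXB2, which acts in the hindbrain, had 466, 776 and 1388 tags in the control shRNA, shRNA5 and shRNA7 lists, and 152 without and 92 with doxycycline. Its control peak of 9050 bp (chr17:46618015-46627064) was the longest HOX peak of that list and held the gene whole, with its summit over the antisense gene HOXB-AS1. ChIP gives no strand, so polymerase on HOXB2 and on HOXB-AS1 cannot be told apart. HOXB-AS1 is 1 of the opposite-strand non-coding genes that start within 1 kb of the canonical TSS of 12 HOX genes.

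HOXB9, which acts at thoracic levels, had 253, 394 and 1409 tags in the knockdown-arm lists and 177 without and 93 with doxycycline. Its shRNA7 peak of 16496 bp held the most tags of the cluster in that list. The strongest HOXB peak was at HOXB2 with shRNA5 (10271 bp, 776 tags), in an intron of HOXB2 without doxycycline (3377 bp, 131 tags) and at the HOXB9 TSS with doxycycline (1786 bp, 80 tags). HOXB5 had 143, 189 and 542 tags in the knockdown arm and 143 and 108 in the doxycycline arm. HOXB3 had 749, 1758, 3855, 968 and 549 tags over a span of 56.0 kb, the longest of the 39, which holds HOXB4, HOXB5 and most of HOXB6. HOXB4, known for its effect on blood stem cells, had 140, 292, 441, 182 and 96.

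HOXB6 was the only HOXB gene with peaks in both knockdown lists and none in the control, with 155 tags with shRNA5, 1307 with shRNA7, 110 without doxycycline and 75 with it. HOXB7 had 253, 666, 2422, 222 and 109 tags, and its annotated span also takes in HOXB8 and HOXB9. HOXB8 had 248 tags with shRNA7, 19 without and 16 with doxycycline, and no peak in the other 2 lists. HOXB13, a gene of the prostate and hindgut, had a single peak of 15 tags, at its TSS without doxycycline. HOXB1, which specifies a segment of the hindbrain, had none.

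The HOXC cluster (chr12:54332115-54450314) was the emptiest of the 4. It held 0, 7, 11, 17 and 11 peaks, and 71.3% of its length lay in no peak of any list. The covered share was 0%, 10.3%, 22.5%, 14.4% and 7.21% of 118 kb. Since the control list has no HOXC tags, no fold over the control is given for this cluster. The strongest peaks lay at a HOXC4 TSS with shRNA5 (2936 bp, 171 tags), at a HOXC9 TSS with shRNA7 (6227 bp, 362 tags) and over HOXC4 without and with doxycycline (4261 bp, 134 tags and 1505 bp, 50 tags).

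HOXC4 had 396 tags with shRNA5 and 852 with shRNA7, and 371 without and 206 with doxycycline. HOXC9, which governs motor neuron identity at thoracic levels, had 139, 459, 56 and 59 tags in the same lists. HOXC5 had 84, 108, 12 and 22, and HOXC6 310, 692, 171 and 131, though its canonical TSS was touched only with doxycycline and its other touched starts lie upstream. The spans of HOXC4 and HOXC6 are 39.1 and 40.2 kb and overlap their neighbours. HOXC11 had a peak with 51 tags with shRNA5 and 81 with shRNA7 and none in the doxycycline arm. HOXC13, needed for hair and nails, had 114 tags with shRNA7 and 31 without doxycycline, and HOXC8 had 1 peak of 9 tags without doxycycline.

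The HOXD cluster (chr2:176956949-177056135) had the largest covered share of the 4 in the control list. It held 7, 9, 9, 21 and 21 peaks over 19.5%, 33.2%, 50.9%, 28.7% and 17.8% of its 99.2 kb. HOXD9 to HOXD11 carried peaks in all 5 lists, as did HOXD3.

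HOXD11, another of the kidney-building number 11 paralogs, had 325, 814 and 3337 tags in the knockdown-arm lists and 220 without and 230 with doxycycline. HOXD10, active in lumbar motor neurons and limb, had 552, 708, 3337, 446 and 243. HOXD9 had 181, 343, 3337, 221 and 32. The value of 3337 belongs to a single shRNA7 peak of 35298 bp (chr2:176966872-177002169), which held HOXD8, HOXD9, HOXD10 and HOXD11 whole and touched HOXD12 and HOXD3. Only 26 peaks of that list were longer. In the other lists the strongest HOXD peak was 4752 bp (247 tags) in the control, 8456 bp (522) with shRNA5 and 5263 bp (174) without doxycycline, each over HOXD10, and 1837 bp (80) at the HOXD3 TSS with doxycycline.

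HOXD9 was the only one of the 13 HOX genes with a control peak whose cover was lower with a hairpin. Peaks covered 61.8% of its widened span in the control list, 24% with shRNA5 and 100% with shRNA7. HOXD3 had 115, 473 and 4038 tags in the knockdown arm, the last mostly from the 35298 bp peak that touches its start, and 147 and 127 in the doxycycline arm. The peak at its canonical TSS gave 115, 269, 450, 81 and 80 tags. HOXD4 had 58 tags with shRNA5 and 128 with shRNA7 and no peak in the other 3 lists, and HOXD8 had 343, 3337 and 39 tags with shRNA5, with shRNA7 and without doxycycline. HOXD1 and HOXD13, at opposite ends of the cluster, had 66 and 44 tags with shRNA7, 37 and 21 without doxycycline and 26 and 24 with it. The shRNA7 peak of HOXD13 had an FDR of 5.63%.

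The tags of the peaks over the 4 clusters together were compared within the knockdown arm. Such a sum moves with how much of the clusters was called as peaks, so it does not measure a change of RNAPII itself. The study's methods describe similar read numbers for compared samples, while exact depths are not in the lists. The tags were 2407 (control), 8261 (shRNA5) and 19974 (shRNA7). The fold over the control was 3.43 (95% Wilson interval 3.28 to 3.59) with shRNA5 and 8.30 (7.95 to 8.66) with shRNA7, where intervals cover counting error only. Over all peaks of the lists it was 4.49 and 7.95. HOX clusters were thus below the whole list with shRNA5 and slightly above it with shRNA7. The spans of other homeobox genes had higher folds than the HOX clusters, 6.43 (5.89 to 7.03) and 24.3 (22.3 to 26.4), over a control of 567 tags in 7 peaks. By gene with a peak in both lists they were not higher. The median fold of 7 such other homeobox genes was 2.23 and 5.48, and that of HOX genes 2.35 and 6.84. The HOX folds with shRNA7 are not independent, since HOXA9 and HOXA10 share a peak, and HOXD9, HOXD10 and HOXD11 share another. As a share of the list's tags the shRNA5 fold of the HOX clusters turns below 1 (0.765), and their shRNA7 fold is 1.04.

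By cluster the folds were as follows. With shRNA5 the fold was 6.49 (5.89 to 7.14) in HOXA, 2.68 (2.49 to 2.88) in HOXB and 2.03 (1.88 to 2.20) in HOXD. With shRNA7 it was 16.5 (15.1 to 18.1), 6.29 (5.89 to 6.73) and 4.59 (4.27 to 4.93). The value was largest in HOXA and smallest in HOXD with both hairpins, with no replicate to say whether the clusters differ. Both comparisons share the control library, in which HOXA had 4 peaks and the fewest tags of the 3 (479, against 1002 and 926). The covered length grew less than the tags: over the 4 clusters it was 49.8 kb in the control, 146 kb with shRNA5 and 257 kb with shRNA7, and the tags per kb of peak were 48.3, 56.6 and 77.1.

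**Figure D4:**
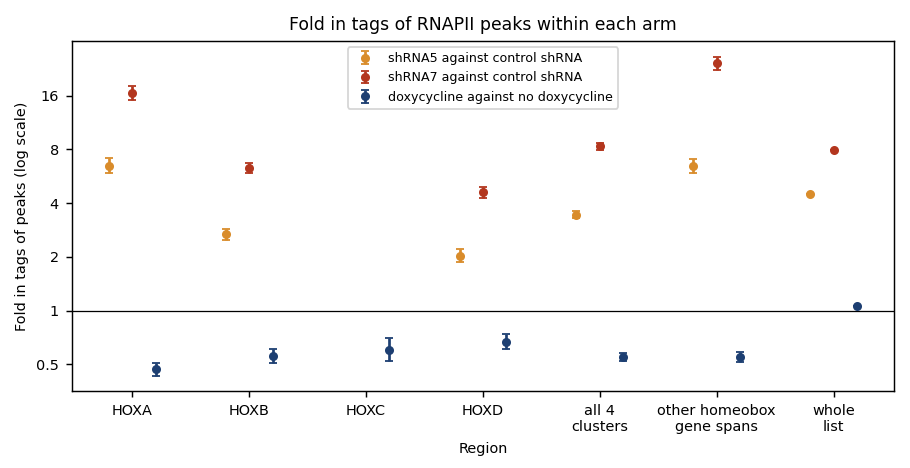
Fold in tags of RNAPII peaks within each arm (log scale) over each HOX cluster, the 4 clusters together, the spans of 95 other homeobox genes and the whole list; points are ratios between single libraries and bars 95% Wilson intervals for counting error. HOXA shows the largest knockdown folds of the HOX clusters (6.49 and 16.5), HOXC has none because its control count is 0, and every doxycycline point over the clusters is below 1 while the whole list is at 1.06.

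By gene, 13 HOX genes gained a peak with shRNA5 (30.1% of all genes did) and 21 with shRNA7 (39%), and none lost one (0.131% and 0.950% of all genes). The 13 with shRNA5 were HOXA3, HOXA4, HOXA5, HOXA7, HOXA11, HOXB6, HOXC4, HOXC5, HOXC6, HOXC9, HOXC11, HOXD4 and HOXD8. TSS peaks were gained by 14 HOX genes with shRNA5 (27.3% of all genes) and 23 with shRNA7 (36.6%), and lost by none (0.121% and 1.05%). Both comparisons use the same control library. Of the 13 HOX genes with a peak in the control and a knockdown list, 8 had at least 2 times the tags with shRNA5 (78.7% of the 4422 genes with a peak in both lists) and 13 with shRNA7 (95.8% of 4260). None had at most 0.5 times the tags (0.0678% and 0.235% of those genes). Their median fold was 2.35 with shRNA5 (3.22 over all such genes) and 6.84 with shRNA7 (6.62). Several of these HOX genes share a shRNA7 peak, so their folds are not independent. With each list reduced to 5287 peaks, 3 HOX genes gained and 5 lost a peak with shRNA5, and 8 gained and 5 lost one with shRNA7. The share of all genes that gained or lost a peak was not computed for lists of this length.

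The same sums were compared in the doxycycline arm, with the same limit. The peaks over the 4 clusters held 4770 tags without doxycycline and 2618 with it, a fold of 0.549 (0.523 to 0.576), while the tags of the whole list moved by 1.06. All 4 clusters were lower: HOXA 0.469 (0.433 to 0.507), HOXB 0.559 (0.512 to 0.609), HOXC 0.604 (0.521 to 0.700) and HOXD 0.671 (0.606 to 0.741). Other homeobox gene spans had 0.550 (0.517 to 0.586). The covered length over the HOX clusters was 144 kb without and 70.7 kb with doxycycline, 0.489 times, against 0.802 times over the whole list. Tags per kb of peak were 33.0 and 37.1 over the clusters and 34.5 and 45.7 over the whole list. The lower sum over the clusters thus went with a shorter covered length, and their tags per covered kb were higher with doxycycline by less than those of the list.

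Peaks were lost with doxycycline over 6 HOX genes (11.7% of all genes lost one), among them HOXA11, HOXB13, HOXC8, HOXC13 and HOXD8, and gained over none (1.08%). The tags of these 5 without doxycycline were 61, 15, 9, 31 and 39. TSS peaks were lost over 6 HOX genes (9.93% of all genes), HOXD10 in place of HOXC8, and gained over none (1.19%). Only a gene with a peak without doxycycline can lose it. Among such genes, 19.4% of HOX genes and 18.2% of all genes lost their peaks. For TSS peaks the shares were 20.7% and 17.4%. Of the 25 HOX genes with a peak in both lists 20 had fewer tags with doxycycline and 5 more, with a median fold of 0.605, against 0.957 over 10375 genes. There were 6 with at most 0.5 times the tags (12% of all such genes) and none with 2 times or more (6.54%). The lowest folds were those of HOXD9 (0.145), HOXA4 (0.147), HOXA10 (0.246), HOXA5 (0.352), HOXA9 (0.414) and HOXB7 (0.491). The HOXA5 value compares peaks of 14807 bp without and 5458 bp with doxycycline, which both covered its span whole. Their tags per kb were 52.6 and 50.2, so this fold follows the length of the called peak. The folds above 1 were those of HOXC5 (1.83), HOXA7 (1.17), HOXD13 (1.14), HOXC9 (1.05) and HOXD11 (1.05), and their tag numbers were from 12 to 59 except for HOXD11.

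**Figure D5:**
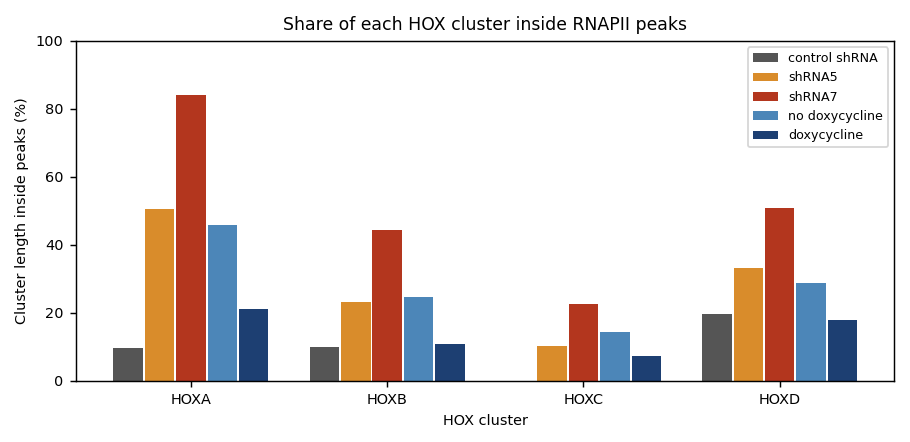
Share (%) of each widened HOX cluster inside RNAPII peaks in the 5 lists, 1 library each. Within the knockdown arm the bars rise from control shRNA to shRNA5 to shRNA7 in all 4 clusters (9.70% to 83.9% in HOXA), and with doxycycline they are lower than without it (45.8% and 21.0% in HOXA).

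Within an arm, the list with the smaller cover lay mostly inside the peaks of the list with the larger cover. Of the control cover, 100% (HOXA), 92.8% (HOXB) and 91.4% (HOXD) lay inside shRNA5 peaks and all of it inside shRNA7 peaks. Of the shRNA5 cover, 97.9% to 99.5% lay inside shRNA7 peaks, while 44.8% to 64.8% of the much larger shRNA7 cover lay inside shRNA5 peaks. With doxycycline 78.0% to 94.7% of the cover lay inside peaks of the list without it, and 38.0% to 53.5% of the latter inside doxycycline peaks. The bases inside peaks of all 5 lists made up 3.75% of HOXA, 4.89% of HOXB, none of HOXC and 9.45% of HOXD, against 0.237% of the chromosomes. In HOXA they lay at the HOXA9 TSS (chr7:27204545-27205626) and in 4 stretches toward and within HOXA10. In HOXB they lay at the TSSs of HOXB3, HOXB5 and HOXB9 and within HOXB2, HOXB3 and HOXB4 and between HOXB2 and HOXB3. In HOXD they lay over and around HOXD11 and HOXD10, between HOXD9 and HOXD8, and at the HOXD3 TSS (chr2:177021834-177023292).

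Where HOX genes had a peak, it covered much of their length. Among genes with a peak the median covered share of the widened span was 49.2% for HOX genes and 7.55% for all genes in the control list. It was 46.1% against 10.9% with shRNA5, 83.7% against 16.3% with shRNA7, 43.2% against 5.57% without doxycycline and 25.1% against 4.94% with it. The median HOX span is short, 4216 bp, which bears on this share, and no matching for length was made. With shRNA7 the spans of 14 of 34 HOX genes were covered whole (41.2%, against 6.84% of all genes). The fold enrichment of single HOX peaks was close to that of their lists, with medians of 12.2 against 12.9 in the control, 7.65 against 7.23 with shRNA5 and 7.74 against 7.51 with shRNA7. It was 16.7 against 13 without doxycycline, the widest gap, and 9.54 against 9.54 with it.

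The summits of HOX peaks lay within 500 bp of a HOX TSS for 4 of 16 control peaks, 18 of 46 with shRNA5, 16 of 43 with shRNA7, 28 of 107 without doxycycline and 25 of 77 with it. Most of the others lay in introns or exons of HOX genes. The place of summits was not computed over all peaks of the lists, so these counts have no share to stand against. The 2 kb around HOX summits held less AT than the lists' median in 9 of 16 control peaks, 39 of 46 and 39 of 43 with the hairpins, and 92 of 107 and 68 of 77 in the doxycycline arm. The median AT content was 47.0% against 49.0% over the control list, 46.2% against 53.6% with shRNA5 and 45.4% against 55.9% with shRNA7. Without and with doxycycline it was 45.9% against 51.7% and 45.3% against 53.2%. The median over HOX peaks thus stayed within 45.3% to 47.0% while that of the lists spread from 49.0% to 55.9%.

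Non-coding genes of the clusters were taken from a list of 28 names, of which 24 were in the annotation. A TSS peak was found for 25.0%, 66.7%, 83.3%, 70.8% and 45.8% of these 24, where 17.3%, 44.5%, 52.8%, 57.0% and 48.2% of protein-coding genes had one. HOTAIRM1, at one end of HOXA, had 76, 247 and 520 tags in the knockdown arm, from the peaks counted for HOXA2, 17 without doxycycline and none with it. HOTAIR, a long non-coding RNA of HOXC known for acting on HOXD, had 51 tags with shRNA5 and 81 with shRNA7, from the peaks counted for HOXC11, and no TSS peak otherwise. A doxycycline peak of 17 tags had its summit within HOTAIR.

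The clusters also carry microRNAs that repress HOX messengers. Peaks lay within 500 bp of the start of MIR196B in HOXA in all 5 lists, with 293, 1198, 4209, 468 and 58 tags, and MIR196A1 in HOXB with shRNA5, with shRNA7 and without doxycycline, with 218, 1409 and 15. MIR196A2 in HOXC was reached in none, and MIR615 in HOXC in all but the control list, with 84, 108, 12 and 22. The mature sequences are shown because the miR-196 members, encoded in 3 clusters with different occupancy, share a seed (bases 2 to 8, in capitals), while miR-615-3p has its own. They are taken from RefSeq (GRCh38.p14 table) and are 22 bases long.
miR-196a-5p: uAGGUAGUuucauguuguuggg
miR-196b-5p: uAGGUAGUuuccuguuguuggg
miR-615-3p: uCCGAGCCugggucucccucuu

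Of 13 coding genes flanking the clusters, 2, 8, 7, 7 and 7 had a TSS peak, or 15.4%, 61.5% and 53.8% in each of the other 3 lists, mostly near the shares of all genes given above. The 2 were HNRNPA1 and CBX5, which share a peak beyond HOXC in the control list and had 1478 tags each in the control list and at least 1276 in every list. EVX1 and EVX2, homeobox genes next to HOXA13 and HOXD13, had no TSS peak in any list.

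Among the 9 genes for HOX cofactors, which bind DNA together with HOX proteins, 1, 4, 6, 7 and 6 had a TSS peak in the 5 lists (11.1%, 44.4%, 66.7%, 77.8% and 66.7%), where it was 17.3%, 44.5%, 52.8%, 57.0% and 48.2% of all protein-coding genes. MEIS1 had one in all of them (59, 102, 271, 31 and 33 tags), and MEIS3 and PKNOX2 in none. Of 19 Polycomb genes, whose products keep HOX clusters silent, 7, 16, 16, 17 and 17 had one (36.8%, 84.2%, 84.2%, 89.5% and 89.5%), above the share of all genes in each list. EZH2, the histone methyltransferase of the complex, had 72, 342, 926, 181 and 301 tags. SUZ12, a core subunit, had 197 and 402 tags in the control and shRNA5 lists, no TSS peak with shRNA7, and 129 and 165 in the doxycycline arm. Of 13 trithorax and related genes, several of which keep clusters active, 6, 10, 11, 13 and 13 had one (46.2%, 76.9%, 84.6%, 100% and 100%), also above it. KMT2A had 166 tags with shRNA7, 20 without and 12 with doxycycline and no TSS peak in the other lists. Of 7 genes of the upstream signals, retinoic acid and CDX factors, 1, 2, 2, 2 and 2 had one (14.3% and 28.6% in each other list), below it, RARA in all 5 lists, RARB in 4, and the 3 CDX genes in none.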

How the data were processed

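RNAPII ChIP-seq and matching IgG libraries, 9 in all, were made by the authors from HEK293 and HEK293T-Rex cells. Per the submitters' processing notes, reads were handled with CASAVA 1.8, aligned to hg19 (GRCh37) with Bowtie 0.12.7, and peaks were called for each RNAPII library with MACS 1.4.2 against IgG. Each hairpin had its own IgG library, whereas for the doxycycline arm the labels give only 1 untreated IgG library, assumed to have served both peak calls. The deposited values of each peak are its tag count (not normalized), a significance score (a scaled −log10 of the authors' p-value), the fold enrichment deposited as a ratio over local background, and the FDR, a percent given by the authors. Aligner settings, fragment size and background model shape peak length and number, and peaks split or merge with depth.

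Gene spans, start sites and promoters came from GENCODE v44 lifted to GRCh37. The HOX genes as a subject, the gene lists and the comparisons were chosen with earlier results of these data known, although no measured value decides which genes are members. Named with values were HOX genes with a TSS peak in the control or at least 4 lists, the strongest peak of each cluster, genes that differ between lists of an arm, and those with no peak. Overlap of at least 1 bp counted. Intervals are 95% Wilson intervals and cover counting error only. The scripts (python 3.11.15, numpy 2.4.6, pandas 2.3.3) were tested on simulated peaks. Alternatives were a score of at least 100, an FDR of at most 5%, a fold enrichment of at least 10, lists of equal length, merged peaks, and other windows. The depth of the libraries is not given in the lists, and the study's methods describe similar read numbers for compared samples. The values of 1 HOXA gene and some promoter sequences are not reported here, though counts over the 39 genes include that gene.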

Additional observations from a re-analysis of the deposited data

Results flagged for a closer look

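The cover of HOXD9 by peaks moved in opposite directions with the hairpins. Against the control shRNA list, the covered percentage of its widened span changed by -37.8 percentage points with shRNA5 and by 38.2 with shRNA7. With 1 library per group the difference was not tested. The tags of the touching peaks were higher with both hairpins, 343 and 3337 against 181, and the shRNA7 value belongs to the peak of 35298 bp that it shares with its neighbours.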

How the results depend on the processing

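Of 166 recomputed values, 114 kept within 1.5 times of the reported count or within its interval, 51 moved and 1 reversed. The cause of each move was not tested unless the setting itself removes peaks. With a fold enrichment of at least 10, HOX genes with a peak were 12 with shRNA5 (30.8%, against 29.7% of all genes). The shares were 28.2% against 20.4% in the control and 59.0% against 39.8% with shRNA7. Without and with doxycycline they were 74.4% against 62.9% and 51.3% against 43.3%. TSS peaks at this setting were 7, 19 and 15 with shRNA5, shRNA7 and doxycycline. Gains and losses with shRNA5 were then 6 and 5, and losses with shRNA7 were 2. With lists of equal length, HOX genes with a peak were 11, 16, 18 and 10 outside the control list, and TSS peaks 7, 14, 14 and 8. Gains and losses were then 3 and 5 with shRNA5 and 8 and 5 with shRNA7. At an FDR of at most 5%, 32 HOX genes had a peak with shRNA7 (82.1%, against 55.3% of all genes). With a score of at least 100, the control list had 2 HOX TSS peaks. With the summit inside the TSS window, there were 4, 15 and 13 in the control, shRNA5 and shRNA7 lists. With the summit inside the widened span, losses were 1 and 5 with shRNA5 and shRNA7, and 2 genes gained a peak with doxycycline. For TSS peaks and for gains and losses, the share of all genes was not computed under these settings.

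The fold in cluster tags with shRNA5 was 4.93 at a score of at least 100, 1.37 at a fold enrichment of at least 10, 1.52 with equal lists and, reversed, 0.765 as a share of the list's tags. The whole list moved too, to 5.34, 2.60 and 2.49 under the first 3 of these. With shRNA7 it was 13.1, 7.41, 4.40 and 1.04 under the same settings and 7.95 at an FDR of at most 5%, and the whole list 9.96, 5.40, 3.98 and, for the FDR, 7.15. With doxycycline it was 0.439, 0.347, 0.313 and 0.517, below 1 in each, and the whole list 1.09, 0.809 and 1.15 under the first 3. Counting only canonical start sites was added after the data were seen and changed no count by over 1.5 times. Reads outside peaks are not in the lists, and a HOX gene without a peak is not shown to lack RNAPII.

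No paired analysis was possible because there was 1 library per condition and nothing was tested across libraries. Leaving out a replicate was not possible either.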
